A study of Papio anubis with 8 samples.

Results

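The imprinted growth regulators described here in fetal hippocampus of the olive baboon (Papio anubis) are MEST, PEG3, PEG10, DLK1, NDN, MAGEL2, PLAGL1, CDKN1C, NNAT and GNAS. They were chosen by name, as the rows of the deposited expression table that carry these gene symbols. Of the 10 genes, 9 were found by symbol among the 37053 rows of the table. GNAS was found by its alias, because its row carries the symbol LOC101006785 and the description of the Gs alpha subunit.

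Hippocampal total RNA was sequenced in 8 libraries, from fetuses at 0.9 of gestation whose mothers differed in adiposity and leptin level, per the study's design text. The labels name no maternal group, genotype, treatment or sex for any library, so all 8 are treated as unassigned, no groups are compared, and values are given for each library. Whether the libraries stem from 8 separate fetuses is not stated in the labels. AMB3 carries L1000 at the end of its title where the other titles have S and a number, with no explanation in the labels.

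Imprinted genes are transcribed mainly or only from the copy inherited from one parent, the choice being set by DNA methylation laid down in the germ line. Several of them control how large a fetus grows, and in the brain they act on progenitor division, neuronal survival and hypothalamic circuits of feeding. MEST, PEG3, PEG10, DLK1, NDN, MAGEL2, PLAGL1 and NNAT are known as paternally expressed genes, and CDKN1C is expressed from the maternal copy. GNAS encodes several products with different parental origins. The table holds 1 value per gene and library, so it does not show which parental copy a transcript came from.

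The members lie on 6 chromosomes in the deposited coordinates, which equal those of the RefSeq table for the assembly Panubis1.0 in 10 of 10 cases. NDN (chromosome 7, 161419273 to 161420950) and MAGEL2 (chromosome 7, 161456542 to 161462309) are neighbours on the plus strand, 35.6 kb apart. DLK1 is on the same chromosome, 155.6 Mb away (5818972 to 5827218). MEST (28050964 to 28071621) and PEG10 (73636681 to 73649983) are both on chromosome 4, and NNAT (64697310 to 64700606) and GNAS (86015575 to 86087385) both on chromosome 16. PEG3 is on chromosome 20 (11369641 to 11401591), PLAGL1 on chromosome 6 (118510262 to 118624287) and CDKN1C on chromosome 12 (121000482 to 121003132). NNAT overlaps BLCAP, which is on the opposite strand, and GNAS overlaps 3 genes of low level (medians of at most 1.01 CPM). The library kit keeps strand, but whether the counting used it is not given in the sources used here, so reads of overlapping genes may not be separated.

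Levels are given as CPM, the estimated count scaled to a library of 1000000 after correction of library sizes by the trimmed mean of M-values. CPM is not corrected for transcript length, so it is compared between libraries and not between genes. Total counts ran from 40404878 to 71648654. Genes that passed a minimum of 10 counts at the median library size in all 8 libraries are called tested (16874 genes), and 9 of the 10 members passed. DLK1 did not, and is described by its counts. The labelled tissue was checked against marker genes: the vesicular glutamate transporter SLC17A7 was at 805 to 1363 CPM and the dentate granule cell factor PROX1 at 14.4 to 96.6 CPM, while the hypothalamic neuropeptides AVP and OXT were below 1 CPM in every library. Across bulk tissue, fewer cells of a type and less RNA per cell cannot be told apart.

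AMB3 stood apart from the other libraries in most members. Of the 9 tested members, 6 had their highest level in AMB3 (PEG3, PEG10, NDN, MAGEL2, CDKN1C and NNAT), where 11.1% of all tested genes had theirs. AMB3 was singled out after these values were seen, and there is no replicate of it, so that the difference has no replicate check. The median over the 9 tested members of log2 CPM in AMB3 minus the median of the other 7 libraries was 0.78, against 0.00 over all tested genes. In the other libraries the same median over the members lay between -0.14 and 0.14. The ranges of the tested members, and the correlations between members where they can be had, are given with and without AMB3.

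**Figure D1:**
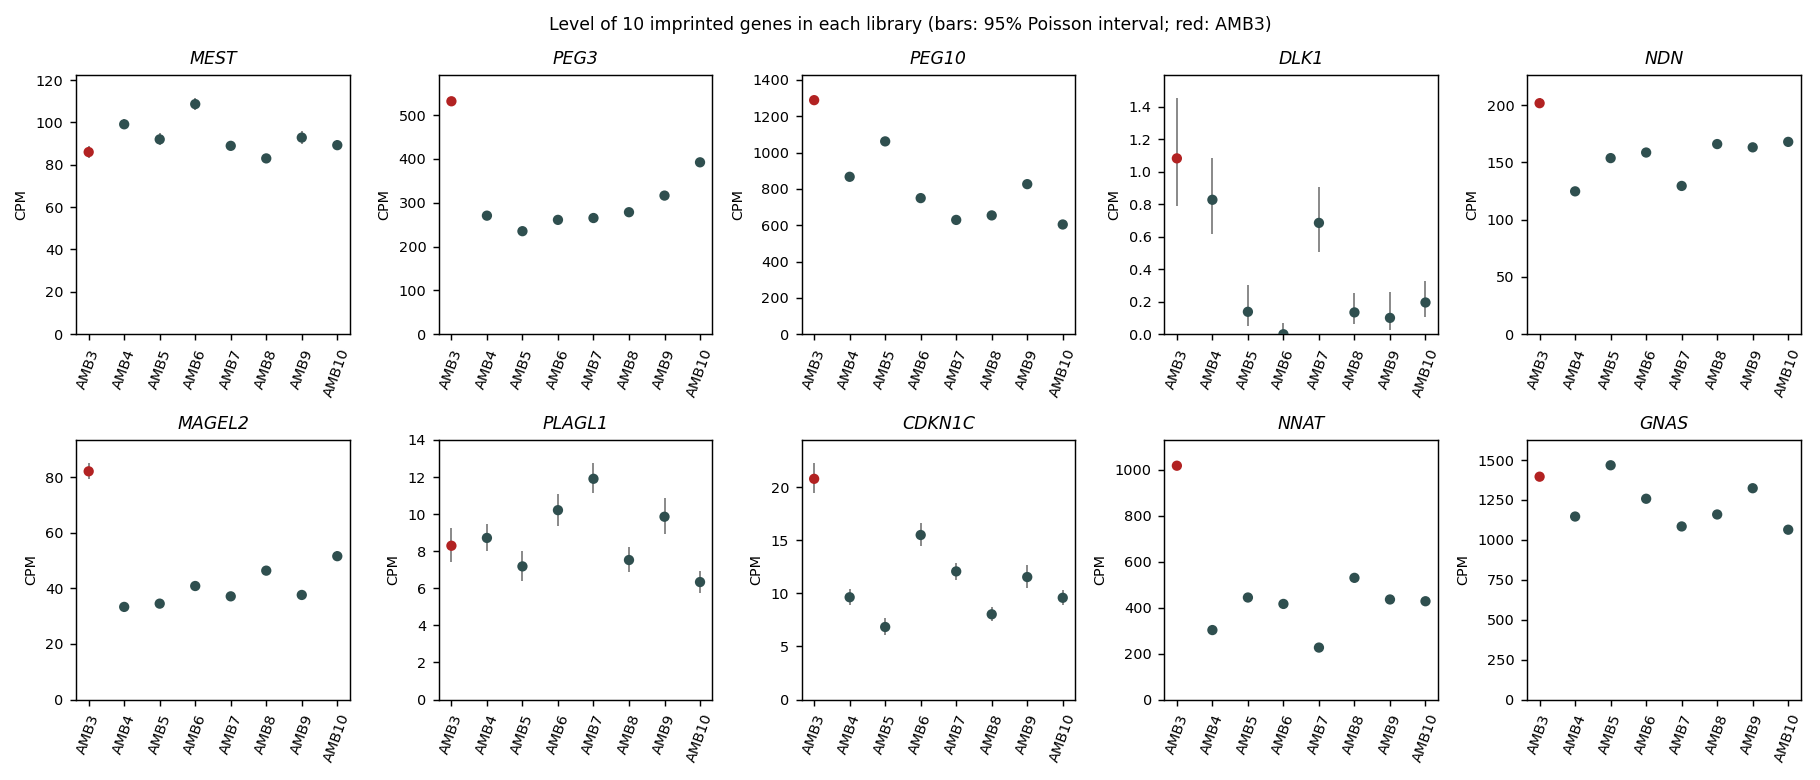
CPM (y axis, linear, starting at 0) of each of the 10 genes in each of the 8 libraries (x axis), with AMB3 in red and the other libraries in dark grey; bars are exact 95% Poisson intervals, which cover counting error only and are often smaller than the points. AMB3 is the highest point for PEG3, PEG10, DLK1, NDN, MAGEL2, CDKN1C and NNAT, and lies within the other libraries for MEST, PLAGL1 and GNAS.

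NNAT, neuronatin, a small membrane protein of the endoplasmic reticulum made in developing neurons, varied most among the tested members. It stood at 1018 CPM in AMB3, 530 in AMB8, 444 in AMB5, 436 in AMB9, 428 in AMB10, 416 in AMB6, 303 in AMB4 and 226 in AMB7. AMB3 was thus 1.92-fold above the next library and 2.38-fold above the median of the others. The neighbours AMB5, AMB9 and AMB10 had overlapping 95% Poisson intervals in that order, and the other neighbours differed by more than counting error. The log2 range, highest minus lowest library, was 2.17, larger than in 92.8% of tested genes, and 1.23 without AMB3. BLCAP, which overlaps NNAT, was likewise highest in AMB3, with 434 CPM against 251 to 333 elsewhere.

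The MAGE family genes NDN and MAGEL2 are neighbours in the domain that is lost in Prader-Willi syndrome. Necdin is known to restrain cell division and to promote survival in neurons, and MAGEL2 acts with ubiquitin ligases in endosomal protein recycling. MAGEL2 was at 82.1 CPM in AMB3, 51.5 in AMB10, 46.3 in AMB8, 40.8 in AMB6, 37.6 in AMB9, 37.1 in AMB7, 34.5 in AMB5 and 33.3 in AMB4. AMB3, AMB10 and AMB8 were separated from each other and from the rest by more than counting error, and the 5 lower libraries formed a chain of overlapping intervals. The log2 range of MAGEL2 fell from 1.30 to 0.63 when AMB3 was left out. NDN was at 202 CPM in AMB3, 168 in AMB10, 166 in AMB8, 163 in AMB9, 159 in AMB6, 154 in AMB5, 129 in AMB7 and 125 in AMB4. Its order of libraries was close to that of MAGEL2, with AMB3, AMB10 and AMB8 at the top and AMB4 at the bottom in both, but its log2 range was smaller, 0.69, and 0.43 without AMB3.

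Other genes of the same domain did not all follow. SNRPN, which encodes a spliceosomal protein, was highest in AMB3 (197 CPM against 133 to 180 elsewhere), and SNURF, which shares its transcript, was not, with 345 CPM in AMB3 against 279 to 366. Reads of this overlapping pair cannot be assigned with certainty to either. UBE3A, the ubiquitin ligase lost in Angelman syndrome, lay between 123 and 142 CPM, and MKRN3 between 5.11 and 11.1 CPM. ATP10A, a phospholipid flippase, ran from 11.8 CPM in AMB8 to 30.9 in AMB7, and was at 17.7 in AMB3.

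PEG3, a zinc finger protein known for its effects on growth and maternal behaviour, was at 532 CPM in AMB3, 392 in AMB10, 316 in AMB9, 279 in AMB8, 271 in AMB4, 265 in AMB7, 261 in AMB6 and 235 in AMB5. AMB3 and AMB10 lay above the rest, and the 4 libraries from AMB8 to AMB6 formed a chain of overlapping intervals. AMB3 was 1.96-fold above the median of the others, and the log2 range was 1.18 with it and 0.74 without it. ZIM2, a neighbour of PEG3, was at most 1.25 CPM and was lower in AMB3 (0.295 CPM) than in all other libraries except AMB10 (0.181 CPM).

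PEG10, a gene derived from a retrotransposon and needed for the placenta, was at 1289 CPM in AMB3, 1062 in AMB5, 867 in AMB4, 826 in AMB9, 749 in AMB6, 654 in AMB8, 629 in AMB7 and 604 in AMB10. Every neighbour in this order differed by more than counting error, and AMB5 came second here although it was the lowest library for PEG3. The log2 range was 1.09, and 0.81 without AMB3. SGCE, a sarcoglycan gene of the PEG10 domain, spanned only 42.4 to 58.2 CPM, with its highest level in AMB3, whereas PPP1R9A, a synaptic scaffold gene of the domain, was at 53.8 CPM in AMB3 within 45.8 to 71.1 elsewhere.

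CDKN1C, the maternally expressed inhibitor of cyclin-dependent kinases (p57), was at 20.8 CPM in AMB3, 15.5 in AMB6, 12.1 in AMB7, 11.5 in AMB9, 9.64 in AMB4, 9.59 in AMB10, 8.03 in AMB8 and 6.84 in AMB5. AMB3 and AMB6 were apart from each other and from the rest beyond counting error. The log2 range was 1.60, and 1.18 without AMB3. Of the genes beside it, KCNQ1, a potassium channel, was at 3.74 CPM in AMB3 and 1.53 to 3.34 elsewhere, and PHLDA2, which restrains placental growth, at 0.886 CPM in AMB3 and 0.179 to 0.875 elsewhere. CD81, a tetraspanin, had 321 CPM in AMB3 and 230 to 334 elsewhere.

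PLAGL1, a zinc finger factor known to restrain proliferation and to act on other imprinted genes, did not share the AMB3 peak. It was at 11.9 CPM in AMB7, 10.2 in AMB6, 9.86 in AMB9, 8.72 in AMB4, 8.29 in AMB3, 7.52 in AMB8, 7.18 in AMB5 and 6.34 in AMB10. AMB7 stood above all others by more than counting error, and from AMB6 downwards all neighbours had overlapping intervals. The log2 range was 0.91 with or without AMB3. PHACTR2, which lies beside it, was highest in AMB10 (48.0 CPM), the lowest library of PLAGL1.

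MEST and GNAS varied least. MEST, a hydrolase-like protein of mesodermal tissue, lay between 83.0 CPM in AMB8 and 109 in AMB6, with AMB3 at 86.0, and its log2 range of 0.39, the same without AMB3, was larger than in only 13.0% of tested genes. GNAS, whose main product couples receptors to adenylyl cyclase, was at 1467 CPM in AMB5, 1396 in AMB3, 1324 in AMB9, 1258 in AMB6, 1159 in AMB8, 1146 in AMB4, 1084 in AMB7 and 1064 in AMB10. Its log2 range was 0.46, the same without AMB3, and larger than in 21.2% of tested genes. The 17 RefSeq transcripts of the GNAS row are summed in 1 value, so that its different products are not separated. STX16, the gene beside GNAS, ranged from 62.9 to 84.1 CPM.

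DLK1, a transmembrane ligand of the Notch family that marks immature and stem cells, was barely detected. It had 44 counts in AMB3, 53 in AMB4, 49 in AMB7, 14 in AMB10, 9 in AMB8, 6 in AMB5, 4 in AMB9 and none in AMB6. These are 1.08 CPM in AMB3 (95% Poisson interval 0.787 to 1.45), 0.828 in AMB4 (0.620 to 1.08), 0.686 in AMB7 (0.507 to 0.906) and at most 0.195 in the others, while a count of 0 in AMB6 allows up to 0.0553 CPM, taken as 3 counts, and its 2-sided interval reaches 0.0680. AMB3, AMB4 and AMB7 did not overlap the others. AMB3 was 19.6-fold above the level of 3 counts in AMB6, a ratio that leaves out the counting error of AMB3. The same 3 libraries were the highest for the list of 7 genes of meninges and fibroblasts, whose summed level was 626 CPM in AMB3, 603 in AMB4 and 757 in AMB7, against 193 to 400 in the others. They were also the highest for the growth factor IGF2, an imprinted gene named here after its values were seen, with 10.3 to 13.8 CPM against 3.11 to 8.60. The part of meningeal tissue in the level of DLK1 was not tested. In the DLK1 domain, DIO3, the enzyme that inactivates thyroid hormone, was at 2.81 CPM in AMB3 and 0.280 to 1.66 elsewhere. RTL1, a retrotransposon-derived gene, had at most 4 counts, and BEGAIN, a synaptic protein gene, was lowest in AMB3 (43.5 CPM against 45.0 to 63.3).

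A log2 range of at least 1 was found in 5 of the 9 tested members, and in 36.1% of all tested genes. The members' share of ranges of at least 1 rested on AMB3: without it 2 members, CDKN1C and NNAT, had such a range, against 33.5% of all tested genes. The median log2 range of the members was 1.09, against 0.77 over all tested genes, and 0.74 against 0.73 without AMB3. Without AMB3 the median range of the members was close to that of all tested genes. AMB3 was singled out after it was seen to be highest in most members, so leaving it out was bound to lower their ranges.

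**Figure D2:**
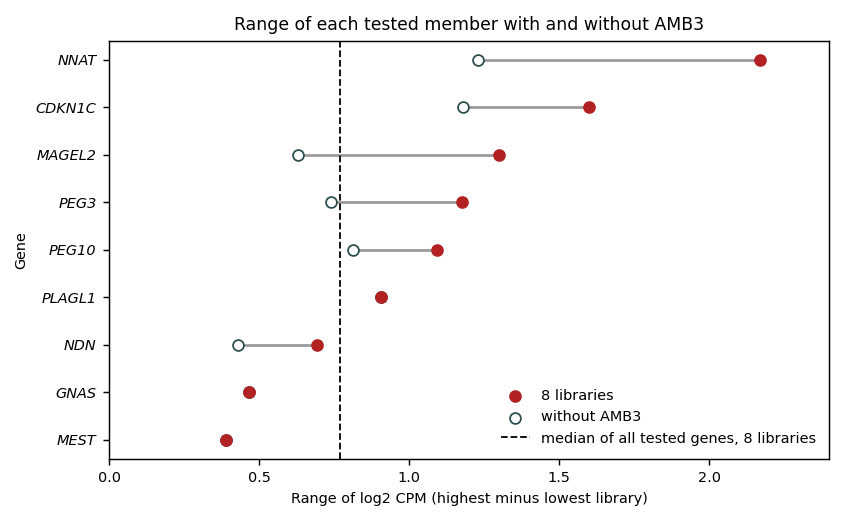
Range of log2 CPM (x axis) of each tested member (y axis) over 8 libraries (red points) and over the 7 libraries other than AMB3 (open points), with a grey line joining both and the median over all tested genes, 0.77, dashed. NNAT moves from 2.17 to 1.23 and MAGEL2 from 1.30 to 0.63, while MEST, GNAS and PLAGL1 do not move.

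Pairs of members were compared across the 8 libraries by Pearson's r of log2 CPM, with an exact 2-sided permutation test over all 40320 orderings and Benjamini-Hochberg adjustment over 145314 pairs of a member with a tested gene. No pair of members passed (0 of 36; smallest adjusted p = 0.366), and neither did any other pair (0%; smallest adjusted p = 0.349). The smallest exact permutation p that 8 libraries allow is 2.48e-05. A single pair at that p would not pass the adjustment over 145314 pairs, and passing would take many pairs near it. The absence of a passing pair therefore does not show that no members vary together. With an unadjusted exact p below 0.05, 6 of 36 member pairs passed, 16.7%, against 9.15% of all pairs of a member with a gene. Without AMB3 the NDN levels fall into 2 sets of libraries, AMB4 and AMB7 against the other 5, so no r is given for NDN there. Of the 28 pairs left, 3 had such a p with all 8 libraries and 1 without AMB3 (3.57%, against 9.92% of pairs of a member with a gene in the same 7 libraries). Those 6 joined PEG3 with NDN and with MAGEL2, NDN with NNAT and with MAGEL2, MAGEL2 with NNAT, and PEG10 with GNAS.

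For each of the 6 pairs except PEG3 and NDN, r is given without the 2 libraries farthest from the median of the first gene. In the 3 pairs without NDN, r is also given without AMB3 alone. NDN and NNAT had r = 0.93 (exact permutation p = 0.00335, adjusted p = 0.366; Spearman's rho 0.74, exact p = 0.0458). Their r was 0.93 without AMB4 and AMB3. AMB7 then lay alone below the other libraries in both genes. Its log2 CPM was 7.02 against at least 7.26 for NDN, and 7.82 against at least 8.70 for NNAT. The r without AMB7 as well was not computed. PEG10 and GNAS had r = 0.85 (exact permutation p = 0.00764, adjusted p = 0.409; rho 0.83, exact p = 0.0154), 0.69 without AMB3 and AMB5, and 0.86 without AMB3 alone, where it was the 1 pair with an unadjusted p below 0.05 (exact permutation p = 0.0133, adjusted p = 0.462). NDN and its neighbour MAGEL2 had r = 0.84 (exact permutation p = 0.00375, adjusted p = 0.374; rho 0.95, exact p = 0.00114), and 0.57 without AMB4 and AMB3. PEG3 and MAGEL2 had r = 0.91 (exact permutation p = 0.00692, adjusted p = 0.408, rho 0.71, exact p = 0.0576). Their r was 0.27 without AMB3 and AMB10, and 0.71 without AMB3 alone (exact permutation p = 0.0698). Leaving out the libraries farthest from the median narrows the span of the first gene, which by itself can lower r. The relation of MAGEL2 and NNAT, r = 0.83 (exact permutation p = 0.0169, adjusted p = 0.463; rho 0.57, exact p = 0.151), was 0.53 without AMB3 and AMB10 and 0.48 without AMB3 alone (exact permutation p = 0.277). PEG3 and NDN had r = 0.74 (exact permutation p = 0.0443, adjusted p = 0.536, rho 0.76, exact p = 0.0368). Without AMB3 and AMB10 the NDN levels again set AMB4 and AMB7 apart from the other libraries, so no r is given there. Over all 36 pairs the median r was 0.35. Over the 28 pairs without NDN it was 0.25 with AMB3 and -0.06 without it.

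**Figure D3:**
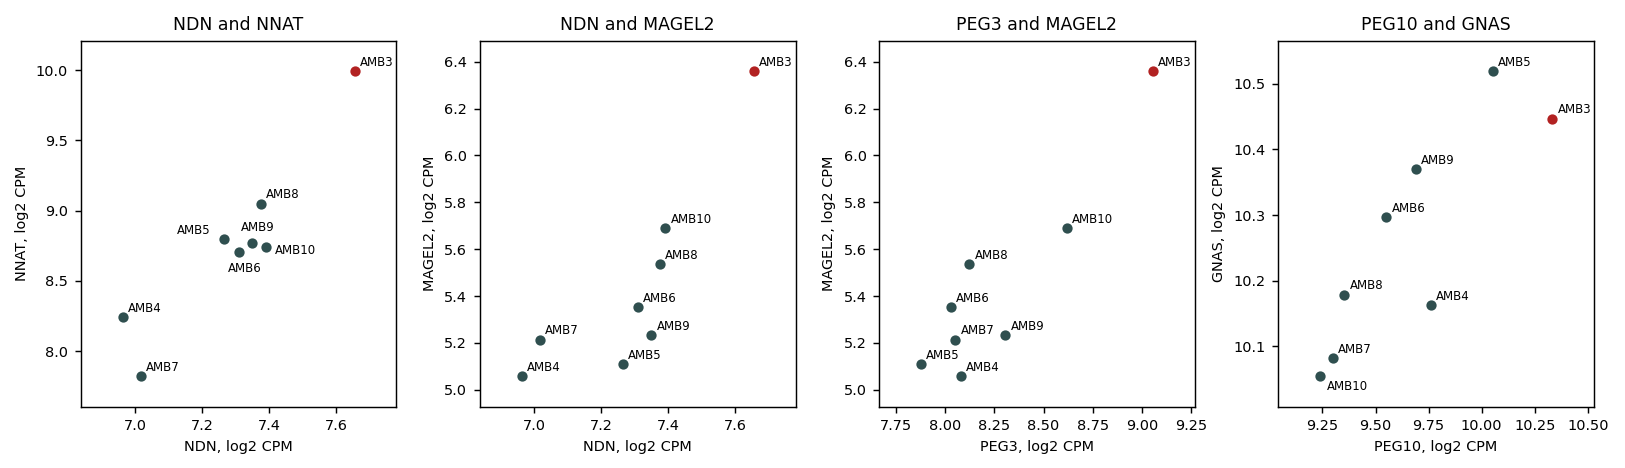
Log2 CPM of 4 pairs of members in the 8 libraries, 1 point per library, AMB3 in red. NDN and NNAT have r = 0.93, and AMB4 and AMB7 lie low in both; PEG3 and MAGEL2 have r = 0.91, and AMB3 and AMB10 lie far from the rest.

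The genes whose pattern over the 8 libraries was most like that of a member, by Pearson's r of log2 CPM among genes with a symbol and a median of at least 5 CPM, are given as a description. For NNAT they were NCKIPSD and PYURF (r = 0.99 and 0.98), for NDN they were NDUFC2 and BCAS2 (0.98 and 0.97), and for MAGEL2 they were BIRC3 and ST13 (0.97 and 0.97). PEG3 was closest to the carboxypeptidase CPQ and the nuclear receptor NR2F2 (0.99 and 0.98), which was at 96.1 CPM in AMB3 with a median of 26.9 over all libraries. CDKN1C was closest to SERPINF1 and KCTD14 (0.97 and 0.95), with SERPINF1 at 54.9 CPM in AMB3 and 11.2 in AMB5. PEG10 was closest to MSANTD3 and TMEM200A (0.95 and 0.94), PLAGL1 to ZNF596 and ANKMY1 (0.99 and 0.97), MEST to ATP9B and BCL9L (0.90 and 0.89), and GNAS to GOT2 and ATP5F1E (0.98 and 0.97). With 16874 genes and 8 libraries, such values are reached for all 9 members.

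Other imprinted genes were taken from a list of 68, of which 61 had a row and 48 were tested. Of these 48, 19 had a log2 range of at least 1 (39.6%, against 36.1% of all tested genes), with a median range of 0.84. In AMB3, 13 of the 48 (27.1%) had their highest level, against 11.1% of all tested genes, and 4 had their lowest. AMB10 came next, with 11 of the 48 (22.9%), against 16.7% of all tested genes. Some of the 13, such as DIO3, SGCE, SNRPN and BLCAP, lie in domains of the members, so the list is not independent of them. The median difference of AMB3 from the other libraries was 0.13 on the log2 scale, smaller than the 0.78 of the members. The genes of highest median CPM in the list were SNURF, CD81 and BLCAP, given above. Those of largest range were DIO3, the dopa decarboxylase gene DDC, at 1.70 CPM in AMB3 and 0.182 to 0.836 elsewhere, and TP73, at 7.27 CPM in AMB10 and 1.12 in AMB7. The 13 genes highest in AMB3 were DDC, DIO3, KCNQ1, PHLDA2, BLCAP, NAP1L5, FAM50B, SLC22A18, INPP5F, ZDBF2, SNRPN, GRB10 and SGCE. Some led by little, such as PHLDA2 (0.886 CPM in AMB3, 0.875 in AMB5) and SLC22A18 (0.837 in AMB3, 0.811 in AMB7). Poisson intervals were not computed for these genes. The 13 include genes known for maternal expression, such as KCNQ1 and PHLDA2, and for paternal expression, such as SNRPN and SGCE. The paternally expressed SNURF, MKRN3, IGF2 and DIRAS3 were highest in other libraries. Of the 13, named after their values were seen, NAP1L5 was at 247 CPM in AMB3 and 133 to 175 elsewhere. INPP5F was at 361 against 237 to 321, and ZDBF2 at 66.3 against 35.2 to 57.8. COPG2, the neighbour of MEST, was lowest there (49.1 CPM against 55.3 to 70.7).

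**Figure D4:**
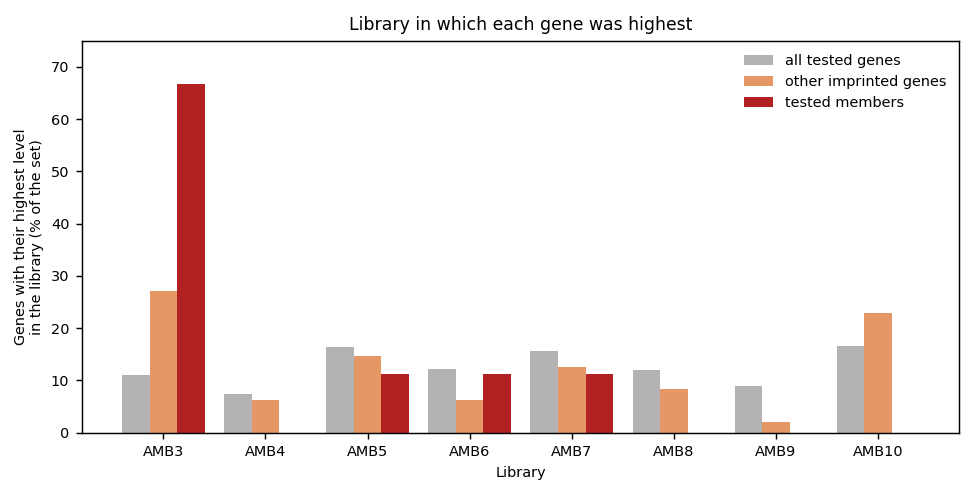
Percent of genes (y axis, from 0) whose highest level fell in each library (x axis), for all 16874 tested genes (grey), 48 other imprinted genes (orange) and the 9 tested members (red). In AMB3 the bars are 11.1%, 27.1% and 66.7%.

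**Figure D5:**
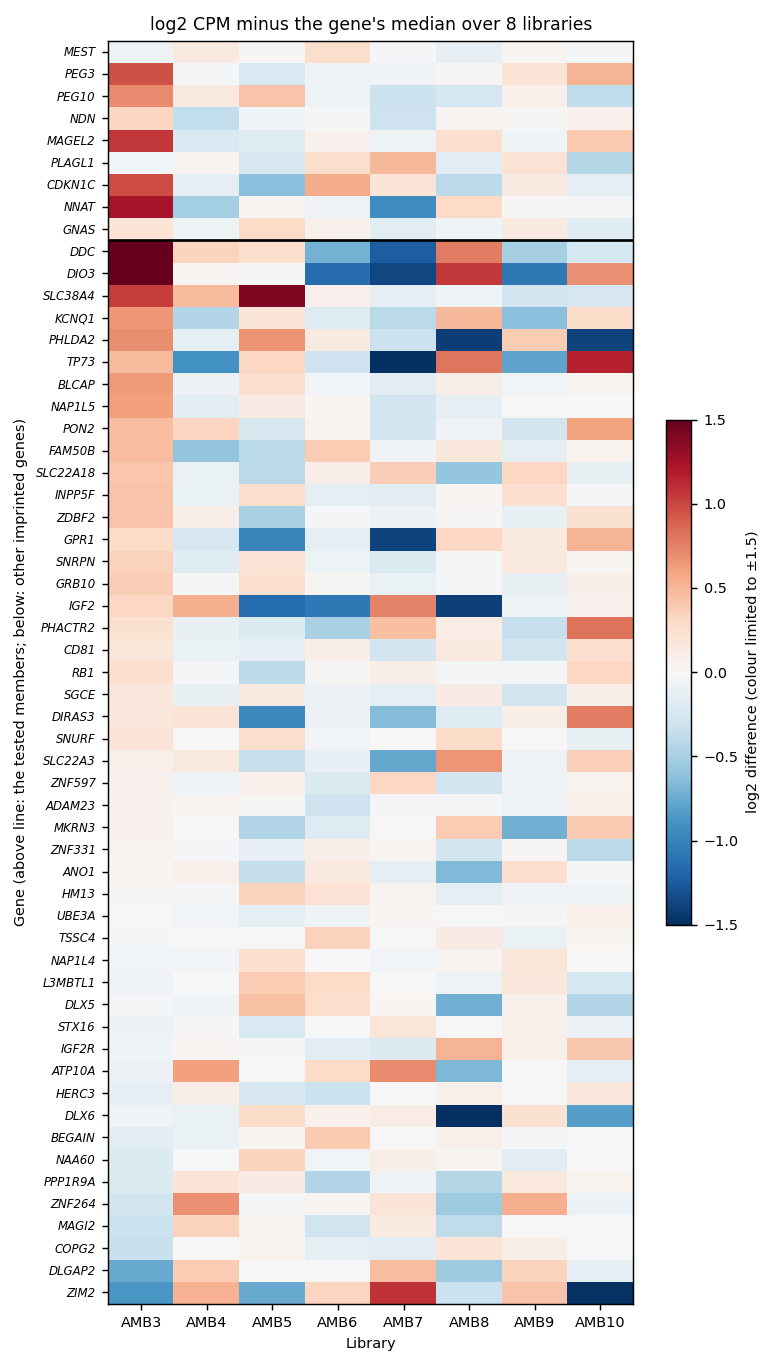
Log2 CPM minus the gene's median over 8 libraries (colour, red higher and blue lower, limited to 1.5 in size) for the 9 tested members above the line and 48 other imprinted genes below it, the latter ordered by the AMB3 difference. In 6 members AMB3 is the reddest library. Among the other genes it is red for DDC and DIO3 at the top, and also for BLCAP, NAP1L5, INPP5F, ZDBF2 and SNRPN. The AMB3 differences of DDC and DIO3 from the median of the other libraries, 2.02 and 1.84, exceed the largest of a member, 1.25 in NNAT. AMB3 is blue for COPG2, DLGAP2 and ZIM2.

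Of 16 listed genes that maintain imprints, 14 had a row and 10 were tested. A log2 range of at least 1 was found in 1 of these 10, against 36.1% of all tested genes: UHRF1, from 2.14 to 4.56 CPM. The genes of highest median CPM were TRIM28, a corepressor, at 163 to 200 CPM, and ZNF445, a zinc finger protein of imprint maintenance, at 79.0 to 152 CPM. CTCF, the insulator protein, came next at 80.8 to 104 CPM. Of the 4 genes with a row that did not pass the filter, DNMT3L and NLRP5 had at most 4 counts. Named after their values were seen, the zinc finger gene ZFP57 had 0.0492 CPM in AMB3 and up to 1.18 CPM in AMB9, and NLRP7 had 1.60 CPM in AMB3 and at most 0.391 elsewhere.

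Of 32 genes listed as partners of the members' proteins, 30 were tested and 9 had a log2 range of at least 1 (30.0%, against 36.1% of all tested genes). The genes of highest median CPM were the G protein subunit GNB1 at 829 to 1146 CPM and the adenylyl cyclase ADCY1, which acts downstream of GNAS, at 305 to 1283 CPM. The calcium pump ATP2A2, a reported partner of neuronatin, came next at 532 to 700 CPM. PPARG, a nuclear receptor of fat cell formation, and ADCY1 had the largest ranges, 3.26 and 2.07. ADCY1 was lowest in AMB8 (305 CPM) and AMB10 (452 CPM) and PPARG highest in AMB8 (7.36 CPM), unlike GNAS, which was highest in AMB5.

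Marker lists of cell types were set beside the AMB3 values. In AMB3 the summed level of 6 excitatory neuron genes was the lowest of all libraries, 2941 CPM against 3162 to 4623, and that of 6 myelin genes was 666 CPM against 658 to 4362. The 5 genes of pericytes and smooth muscle summed to 246 CPM in AMB3 against 125 to 405, the 7 of meninges and fibroblasts to 626 against 193 to 757, and the 7 interneuron genes to 700 against 332 to 790. Of 70 tested single markers, 5 were highest in AMB3 (7.14%, against 11.1% of all tested genes). They were the interneuron gene GAD2 (117 CPM against at most 105), the endothelial gene FLT1 (50.0 against 33.2 to 49.6), the meningeal genes DCN (137 against 9.11 to 62.0) and FOXC1 (11.2 against 6.75 to 10.2), and KL of the choroid plexus (7.95 against 1.78 to 5.41), all named after their values were seen. The other 5 meningeal and fibroblast genes, COL1A1, COL1A2, COL3A1, LUM and PTGDS, were highest in AMB4, AMB7 or AMB9. AQP1, the other tested choroid plexus gene, went the opposite way to KL and was lowest in AMB3 (0.492 CPM against at least 4.39). AQP1 too was named after its values were seen. The 8 genes of hypothalamus and other forebrain regions summed to 12.3 CPM in AMB3 against 8.65 to 17.0, and the 5 choroid plexus genes to 10.7 against at most 28.3. None of the listed markers was at 0 in all libraries. The remaining lists also had AMB3 inside the span of the other libraries: immature neuron (3437 CPM against 2602 to 4726), dentate granule cell (220 against 96.6 to 701), astrocyte (4612 against 2805 to 6148), oligodendrocyte precursor (122 against 80.7 to 181), microglia (107 against 59.7 to 129), endothelium (187 against 135 to 197), red blood cell (110 against 22.8 to 116) and proliferating cell genes (40.3 against 37.3 to 50.7). The part of cell composition in the AMB3 levels of the members was not tested.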

How the data were processed

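The authors deposited raw values, which are estimated counts for RefSeq genes (the annotation is named per the file headers, and the fractional values show the unit), and the authors' normalized values are on a log2 scale relative to a baseline per gene. DESeq is named, with no version, per the submitters' processing notes. For aligner, counter and build, the entry is: not given in the sources used here. Estimated counts were rounded. Library sizes came from the TMM method of edgeR 4.0.16 (R 4.3.3), and genes were kept by filterByExpr with a minimum count of 10. Log2 CPM used a prior count of 2. Exact Poisson intervals (95%) cover counting error only. Correlations used SciPy 1.17.1 and NumPy 2.4.6, with all orderings of the libraries enumerated. None is given where a gap over 0.5 of the range separated at least 2 libraries on each side. In 8 libraries 0 members were affected. NDN was affected without AMB3, and without AMB3 and AMB10. The procedures were tested on simulated data. The simulated counts had counting error only, and many planted genes followed 1 known pattern. This test therefore does not show that a related pair of members would be found. Members and lists were chosen with earlier results of these data known. Genes named are all members, genes of a member's imprinted domain, and for each member the 2 genes of highest r. Those of highest median CPM and of largest range in each list are named too. Alternatives were plain library sizes, DESeq2 1.42.0 size factors, the deposited log2 values, a prior count of 0.5, other filters and leaving out each library.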

Additional observations from a re-analysis of the deposited data

Results flagged for a closer look

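Among the 10 members, 2 had a library whose gap to the nearest other, divided by the whole range of CPM over the 8 libraries, exceeded Dixon's 95% critical value for 8 samples. In MAGEL2 the gap of AMB3 (82.1 CPM) to AMB10 (51.5 CPM) was 0.626 of the range. In NNAT the gap of AMB3 (1018 CPM) to AMB8 (530 CPM) was 0.617 of the range. Chance alone places about 1 in 20 groups past this value. On the log2 scale, which the ranges and correlations use, the same ratios were 0.516 for MAGEL2 and 0.434 for NNAT, both below the critical value, so that neither gene stood out there. This scale was added after seeing the data.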

How the results depend on the processing

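Of 96 values recomputed under other scalings, prior counts and filters, 93 stayed close to those reported. An exception was the log2 range of DLK1, 6.95 with a prior count of 0.5 against 4.98 with 2. The others came with no filter, where more genes of low count enter. They were the number of other imprinted genes with a log2 range of at least 1 (30 against 19) and the percent of all genes with such a range (54.2% against 36.1%). With a minimum of 1 count in every library these were 25 and 45.2%, which were counted as close. So was the log2 range of DLK1 with the deposited log2 values, 5.82. The number of tested members highest in AMB3, a count chosen after seeing the data, was 6 under each of these settings except with no filter, where DLK1 enters and it was 7. The number of pairs of the 9 tested members past the adjusted threshold was 0 under each setting. That count had little room to differ, given the smallest exact permutation p that 8 libraries or fewer allow. Leaving out 1 library at a time moved the log2 range of MEST over 0.26 to 0.39 (lowest without AMB6), of PEG3 over 0.74 to 1.18, of DLK1 over 3.04 to 4.98 (lowest without AMB6), of NDN over 0.43 to 0.69, of MAGEL2 over 0.63 to 1.30 and of NNAT over 1.23 to 2.17, the lowest of PEG3, NDN, MAGEL2 and NNAT being without AMB3. The number of members with a range of at least 1 lay between 2 (without AMB3) and 5, and the number of member pairs with an unadjusted exact p below 0.05 between 1 and 7, against 6 with all libraries. The count of 1 is without AMB3, where NDN has no r and 3 of the 6 pairs drop out for that reason. Ranges over single libraries have no test, and depth limits DLK1, which had at most 53 counts. The planned motif search in promoters was not run, because no sequences were used here.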
